A study of Mus musculus with 32 samples.

Results

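Cisplatin is a platinum drug that binds to guanines in DNA, and damage to the kidney is among its best known side effects. Cells that meet such stress activate MAP kinases and within minutes to hours transcribe immediate early genes, many of which encode short-lived transcription factors such as the Fos and Jun proteins that form AP-1. The same kinases induce their own brakes, the dual-specificity phosphatases, and DNA damage also stabilises p53, which turns on cell cycle inhibitors such as Cdkn1a (p21). The kidney reabsorbs and concentrates small molecules along its tubules, whereas the lung is built of alveolar and airway epithelium and a dense bed of capillaries. The question addressed here is which genes responded to cisplatin differently in the kidney and in the lung.

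The comparison used the 8 RNA-seq libraries of kidney and lung, chosen by their organ and assay among the 32 libraries of the series. All animals were wild-type C57BL/6J female mice of 6 to 7 months, and in each organ 2 libraries came from controls that received saline and 2 from mice given 10 mg/kg cisplatin by the intraperitoneal route. Treatment was at ZT1 and organs were taken at ZT5, which is 4 h later, while a label of each sample gives 2 h. RNA was extracted from organ tissue without sorting of cells in the protocol, so that fewer cells of a type and less RNA per cell cannot be told apart in these values. The difference of differences, kidney change minus lung change, is called the interaction below, and both changes are cisplatin minus control on the log2 scale.

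Library totals ranged from 15619474 to 55043177 reads on genes in kidney and from 27662355 to 162270280 in lung. The 2 lung control libraries were nearly as alike as repeated draws from 1 library, with a chi-square per degree of freedom of 2.75 where the other pairs gave 39.3 to 89.35, and they were summed and counted as 1 sample. An update of the record had exchanged control and cisplatin in the labels of the lung libraries, and the labels as corrected were used. Cdkn1a checked them, at 150 and 143 CPM (read counts scaled to the same library total) in the lung control libraries against 503 and 587 in the lung cisplatin libraries, and at 15.1 and 30.1 against 431 and 456 in kidney. Sftpc, the surfactant protein of alveolar type II cells, stood at 14200 to 17700 CPM in lung and 2.80 to 5.50 in kidney, and Umod, the uromodulin of the loop of Henle, at 3970 to 5230 CPM in kidney and 0.265 to 8.71 in lung. Markers of other tissues differed between the lung groups. The 29 adipocyte genes of a list summed to 7580 and 7700 CPM in the lung controls and 952 and 1690 after cisplatin, the 9 thymocyte genes to 225 and 242 against 55.8 and 60.0, and the 23 muscle genes to 235 and 236 against 350 and 654, and the part of these tissues in the lung changes was not tested.

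The interaction was called for 63 of 18204 genes tested, a share of 0.346%, by edgeR's quasi-likelihood test at a Benjamini-Hochberg adjusted p below 0.05. In 61 genes the kidney change lay above the lung change (0.335% of genes tested) and in 2 below it (0.011%). Each organ was also called on its own, against a log2 change of 0.4. In kidney 1097 genes were called (6.03%), 498 up (2.74%) and 599 down (3.29%), and in lung 148 (0.813%), 3 up (0.0165%) and 145 down (0.797%). Joined with these calls, the 63 genes fell into 44 that rose in kidney and were not called in lung, 15 that fell in lung and were not called in kidney, 2 that fell in kidney and were not called in lung, 1 that rose in kidney and fell in lung, and 1, Anks4b, called in neither organ. With 3 residual degrees of freedom behind these tests, single libraries decided the count. Without kidney cisplatin replicate 1, kidney cisplatin replicate 2 or lung cisplatin replicate 2 the interaction was called for 2, 1 and 3 genes, and without kidney control replicate 2 or lung cisplatin replicate 1 for 120 and 147. At an unadjusted p below 0.05 stood 2309 genes (12.7%). DESeq2, given the 23446 genes with any read, called 702, 511 and 191 by direction, all 63 among them. The 702 all lay among the 18204 genes that edgeR tested. Below, a call with no tool named is by edgeR, and a gene not called is not shown to be unchanged.

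**Figure D1:**
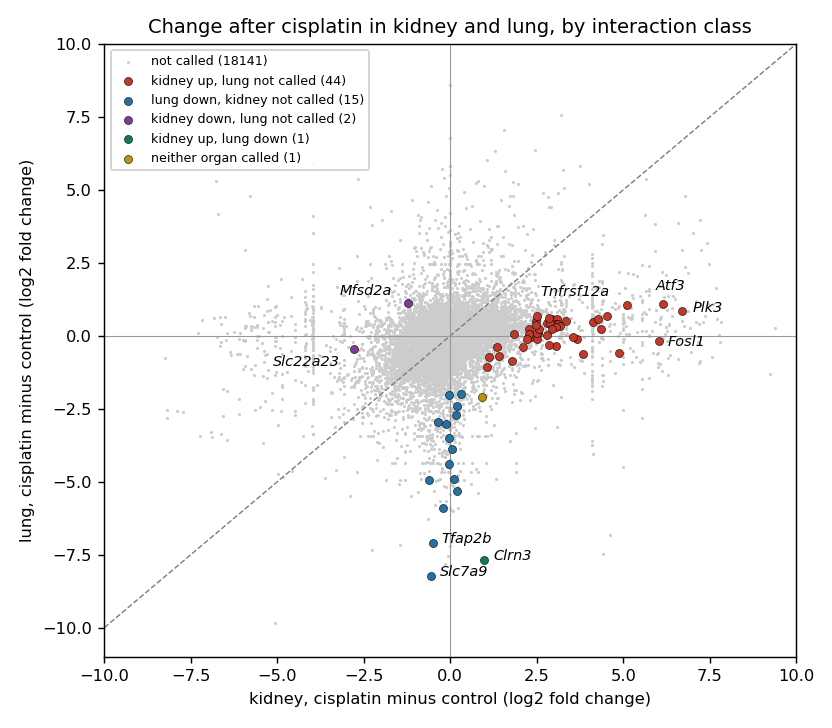
Each point is 1 of the genes tested, with the log2 change after cisplatin in kidney on the x axis and in lung on the y axis, coloured by the class of its interaction call. The 44 genes called up in kidney and not called in lung have lung changes from -1.06 to 1.09, the 16 that fell in lung lie below it near a kidney change of 0, and 1 gene is outside the axes.

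The largest class was the 44 genes that rose in kidney and were not called in lung, among them the transcription factors Fosl1 and Atf3, the kinase Plk3 and the growth factor Hbegf. Across the 44 genes the kidney log2 change ran from 1.07 to 6.70 with a median of 2.87, and the lung change from -1.06 to 1.09 with a median of 0.23, while the medians over all genes tested were 0 in both organs. All 44 had kidney cisplatin libraries that did not overlap the kidney controls, as did 52.2% of all genes tested. In 35 of the 44 the lung groups did not overlap, as in 66.7% of all genes tested. Overlap in lung, here and below, takes the 2 lung control libraries singly, though the fit counted them as 1 sample. Lung groups without overlap thus carry less weight than kidney groups without overlap. In lung 28 of the 44 changes were above 0 and 16 below, and 2 ratios, of Atf3 and Tnfrsf12a, were over 2. By edgeR the lung calls among them numbered 0, with 8 at an unadjusted p below 0.05 (4 up and 4 down) and 0 by DESeq2.

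Fosl1, which encodes the AP-1 subunit Fra-1 (chromosome 19, 5447547 to 5455946, plus strand, GRCm38, ENSMUSG00000024912), was at 0.466 and 0.509 CPM in the kidney controls, 31.6 and 32.1 in kidney after cisplatin, 2.86 and 2.70 in the lung controls and 2.50 and 2.44 in lung after cisplatin. The kidney libraries after cisplatin were far above all others, and the lung libraries of both groups lay close together. Its kidney level rose 65.5-fold and its lung ratio was 0.885. The interaction was 6.21 ± 0.36 on the log2 scale, with an edgeR adjusted p of 0.0028. Values after ±, here and below, are approximate standard errors. They are the absolute log2 change divided by the square root of the F statistic of the quasi-likelihood test against 0.

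Plk3, a polo-like kinase of the stress response (chromosome 4, 117128655 to 117133963, minus strand, ENSMUSG00000028680), had the smallest p of the interaction. Its libraries stood at 4.87 and 3.62 CPM in kidney control, 431 and 414 in kidney cisplatin, 8.13 and 6.48 in lung control and 12.9 and 12.7 in lung cisplatin. Both organs had no overlap between their groups, but the kidney level rose 104-fold against a lung ratio of 1.82. The interaction was 5.84 ± 0.25 with an adjusted p of 0.00099, and it was called in each of the alternatives tried, leave-one-out included.

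Atf3, a stress-induced repressor and activator of the CREB family (chromosome 1, 191170296 to 191218039, minus strand, ENSMUSG00000026628), went from 2.02 and 3.27 CPM to 179 and 207 in kidney and stood at 12.4 and 12.5 against 31.2 and 23.0 in lung. Kidney control was the lowest group and kidney cisplatin the highest. The kidney rise was 71.6-fold, the lung ratio 2.12 was not called, and the interaction was 5.08 ± 0.43 (adjusted p = 0.0090, edgeR). Without kidney cisplatin replicate 1 or 2 or lung cisplatin replicate 2, edgeR no longer called it.

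**Figure D2:**
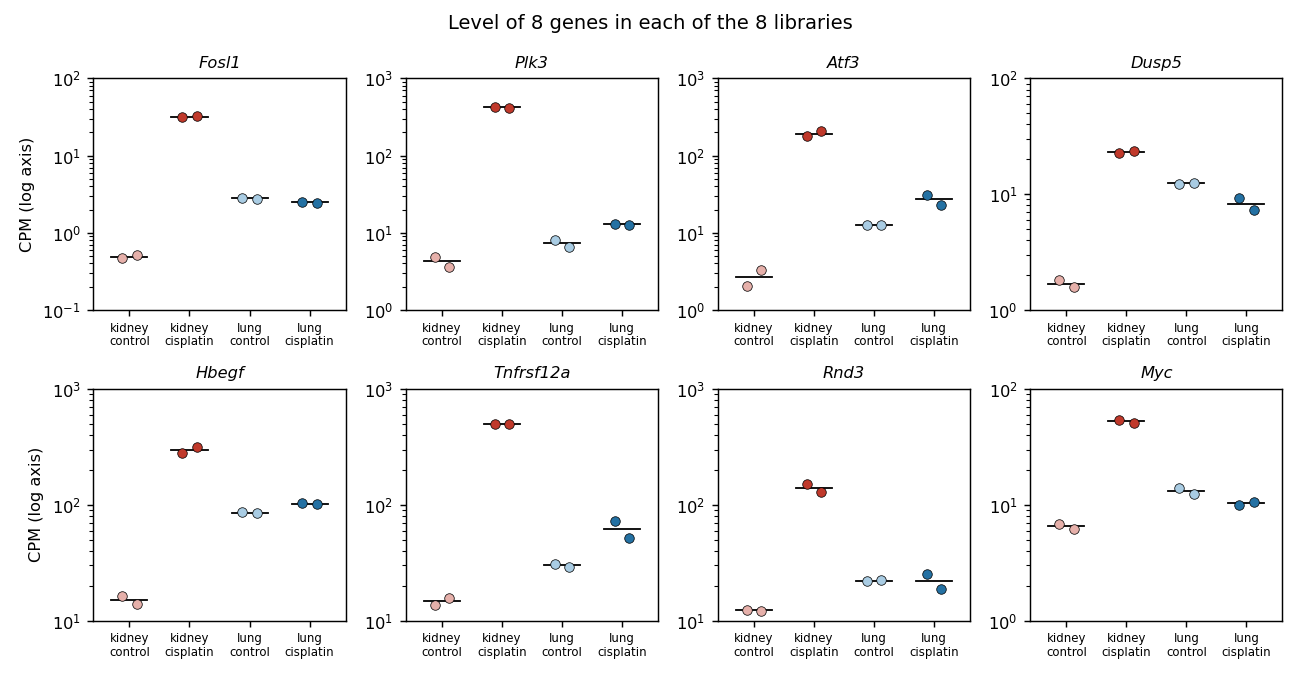
Points are the 8 libraries, 2 per group, the y axis is CPM on a log scale and the short lines are group means. In each of the 8 genes both kidney cisplatin libraries lie above every other library, and kidney control is the lowest group.

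Parts of this order were counted on their own over the 44 genes. In 39 of the 44 genes the lung control level was above the kidney control level, which was so in 60.1% of all genes tested, and in 39 of the 44 the kidney cisplatin level was above the lung cisplatin level, against 39.6% of all genes. The counts leave out different genes, so fewer genes kept the full order. In Slc16a1 the lung control mean (131.8 CPM) also lay above the kidney cisplatin mean (117.1 CPM). These shares use the same libraries as the call and describe the genes only.

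Among the 27 tested immediate early genes of a list, 23 rose in kidney. The interaction was called by edgeR for 9, all with the larger rise in kidney. This list and those below were chosen with earlier results of these data known, so their counts are descriptions and no test. DESeq2 called 22 of the 27 interactions, and 25 had an unadjusted p below 0.05. Over all genes tested, 0.335% had such an interaction by edgeR and 2.74% rose in kidney. DESeq2 called 511 of these 18204 genes with the kidney change above, and 12.7% had an unadjusted p below 0.05 in either direction. None of the 27 was called in lung by edgeR, where 6 had an unadjusted p below 0.05 and DESeq2 called 1. The 9 were Fosl1, Atf3, Maff, Myc, Klf6, Jun, Junb, Btg2 and Ier2. The list median was 2.50 in kidney and 0.23 in lung. Summed over the list, the kidney libraries went from 427 and 452 to 2550 and 2560 CPM, and the lung libraries stood at 1770 and 1790 against 2310 and 2570. Myc, a growth-promoting transcription factor, was at 6.88 and 6.20 CPM in the kidney controls, 54.4 and 50.9 after cisplatin, and in lung at 13.9 and 12.5 against 10.0 and 10.7. It rose 8.30-fold in kidney with an interaction of 3.39 ± 0.25 (adjusted p = 0.0089). Maff, a small Maf protein, rose 23.1-fold in kidney (2.74 and 4.20 to 81.5 and 80.0 CPM) against a lung ratio of 1.61. Jun, the partner of Fos proteins, was at 29.5 and 40.2 CPM in kidney control and 296 and 269 after cisplatin, which brought it to the range of the lung libraries, at 239 and 238 in control and 356 and 294 after cisplatin. Klf6, a Krueppel-like zinc finger factor, likewise rose from 66.4 and 60.2 to 534 and 527 CPM in kidney and stood at 300.2 and 311 against 435 and 401 in lung. Fos and Egr1, picked out after their values were seen as the best known members, rose in kidney by 3.54 and 4.11 on the log2 scale. Their interactions of 1.81 and 3.90 missed the threshold, with adjusted p of 0.11 and 0.074.

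**Figure D3:**
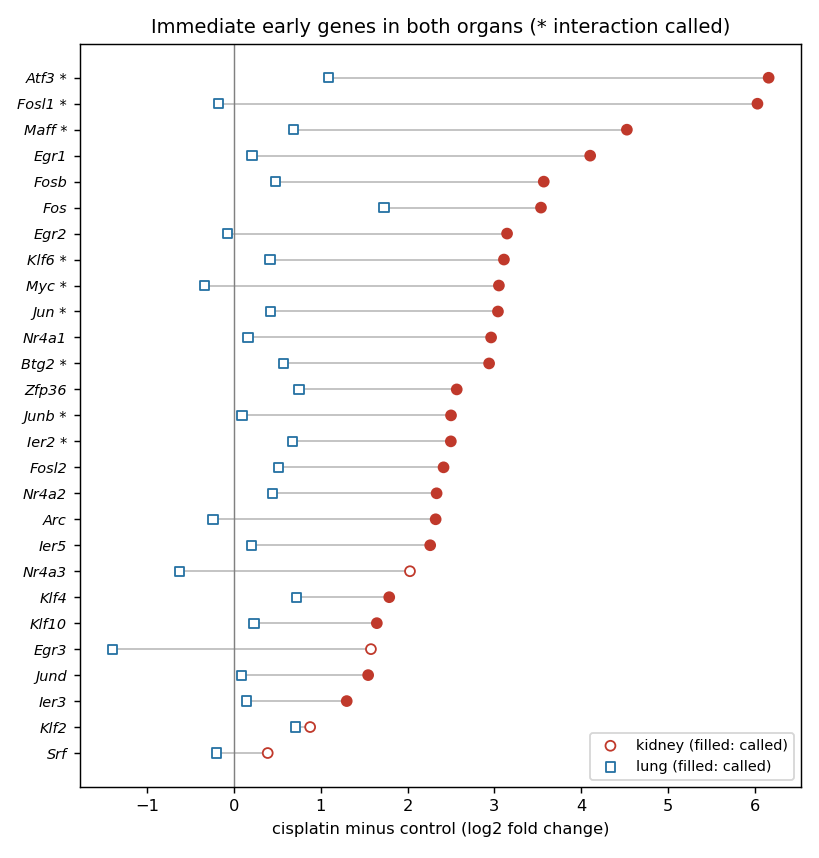
Each row is an immediate early gene, ordered by its kidney change, with the log2 change in kidney as a circle and in lung as a square, filled where that organ was called and starred where the interaction was called. Kidney circles lie to the right of the lung squares in all 27 rows, and no lung square is filled.

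Dual-specificity phosphatases and related inhibitors of MAP kinases formed the next list, with 4 of 17 interactions called by edgeR, 8 by DESeq2, and 9 rises in kidney against 1 in lung. At an unadjusted p below 0.05 were 12 interactions with the kidney change above and 1 with it below. The shares over all genes tested were 12.7% at that p, 2.74% for rises in kidney and 0.0165% for rises in lung. For edgeR interactions with the kidney change above the share was 0.335%, and DESeq2 called 511 of all 18204 genes in that direction. Dusp5, which acts on nuclear ERK, was at 1.81 and 1.56 CPM in kidney control and 22.7 and 23.6 after cisplatin, and in lung at 12.4 and 12.4 against 9.22 and 7.25. The groups did not overlap in either organ, with cisplatin higher in kidney and lower in lung, and of these the kidney rise of 14.2-fold was called and the lung ratio of 0.650 was not. Its interaction was 4.45 ± 0.35 (adjusted p = 0.0089). Dusp8, a phosphatase of JNK and p38, rose 19.2-fold in kidney, from 5.07 and 6.61 to 116 and 107 CPM, and in lung was at 35.8 and 32.5 against 62.1 and 38.4. Dusp4 rose 5.65-fold and Dusp6, the cytoplasmic ERK phosphatase, 2.16-fold in kidney, with lung ratios of 0.924 and 0.609. Dusp1 differed from these, since it was called up in both organs.

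Of 30 p53 targets tested, 11 rose in kidney and edgeR called 3 interactions, those of Plk3, Plk2 and Btg2, where DESeq2 called 8. By edgeR 0 of the 30 were called in lung, with 7 up and 1 down at an unadjusted p below 0.05 and 2 called up by DESeq2. Among all 18204 genes tested, 2.74% rose in kidney and 0.335% had an edgeR interaction with the kidney change above. In lung 223 of them were up and 1563 down at an unadjusted p below 0.05. Plk2, a second polo-like kinase, was at 15.3 and 11.3 CPM in kidney control and 97.7 and 86.6 after cisplatin, and at 66.5 and 68.0 against 58.3 and 53.4 in lung, an interaction of 3.15 ± 0.25 (adjusted p = 0.0089). Btg2, an antiproliferative gene that both lists hold, rose 7.67-fold in kidney with a lung ratio of 1.48. Cdkn1a rose in kidney by 4.31 ± 0.38 on the log2 scale and its lung change was 1.89 ± 0.45 with an adjusted p of 0.16. The interaction of 2.42 ± 0.52 had an adjusted p of 0.13. Gdf15, a secreted stress cytokine, was at 7.66 and 6.09 CPM in kidney control, 201 and 263 after cisplatin, 1.37 and 1.45 in lung control and 8.33 and 4.87 in lung after cisplatin. Its groups were apart in both organs, and its interaction of 2.98 had an adjusted p of 0.064.

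Genes of protein folding and of the integrated stress response made up a further set. Among 20 chaperone genes 8 rose in kidney, against 2.74% of all genes tested. The interaction was called by edgeR for 2 of them, Dnajb4 and Dnajb1, co-chaperones of Hsp70, against 0.335% of all genes with the kidney change above. DESeq2 called 10 of the 20 interactions, against 511 of all 18204 genes with the kidney change above. At an unadjusted p below 0.05 were 13 of the 20, against 12.7% of all genes tested. Dnajb4 rose 6.91-fold in kidney, from 55.9 and 41.5 to 345 and 305 CPM, and stood at 85.4 and 88.6 against 135 and 110 in lung. Dnajb1 rose 2.55-fold, and its lung ratio was 0.768. Hspa1b and Hspa1a, near-identical genes between which reads may be split, rose in kidney by 2.09 and 2.40 on the log2 scale, and edgeR called neither interaction, while DESeq2 called that of Hspa1b. Dnajb9, a co-chaperone of the endoplasmic reticulum, went from 90.1 and 76.9 to 507 and 430 CPM in kidney, while all 4 lung libraries lay between 117 and 133. Ddit3 (CHOP), a transcription factor of the integrated stress response, rose 4.79-fold in kidney against a lung ratio of 1.06, and was the 1 gene of 21 on that list whose interaction edgeR called. DESeq2 called 3 of the 21, and 5 had an unadjusted p below 0.05 (12.7% of all genes tested).

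Further genes among the 44, of varied function, are given here by their values. Hbegf, a ligand of the epidermal growth factor receptor, was at 16.2 and 14.0 CPM in kidney control, 283 and 315 after cisplatin, 86.5 and 84.8 in lung control and 103 and 101 in lung after cisplatin. The interaction was 4.12 ± 0.24 with an adjusted p of 0.0028. Tnfrsf12a, the receptor of the cytokine TWEAK, rose 34.7-fold in kidney, from 13.5 and 15.8 to 499 and 497 CPM, and stood at 31.0 and 29.0 against 72.8 and 51.8 in lung. Epha2, an ephrin receptor, rose 10.1-fold and Plaur, the urokinase receptor and a listed marker of kidney injury, 7.42-fold, with lung ratios of 1.41 and 1.34. Rnd3, a small GTPase, went from 12.4 and 12.1 to 150 and 129 CPM in kidney, and all 4 lung libraries lay between 18.8 and 25.0. Rcan1, an inhibitor of calcineurin, reached 1081 and 1519 CPM from 91.9 and 118 in kidney, and the 4 lung libraries stood at 54.2 to 61.2. Sfn (14-3-3 sigma), Phlda1, Ptp4a1 and Gadd45a rose 7.74-, 4.32-, 8.27- and 8.41-fold in kidney, with lung ratios of 1.18, 0.762, 1.24 and 1.49. The pair of transporters in the group, Slc20a1 for phosphate and Slc16a1 for lactate, rose 7.25- and 2.10-fold, with lung ratios of 1.51 and 0.479. Cebpb, which the list of glucocorticoid-induced genes holds, rose 5.05-fold in kidney to 28.0 and 19.8 CPM and stood at 34.4 to 39.1 in the 4 lung libraries.

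Promoters of these genes were read from RefSeq (GRCm38.p6) as 250 bases before to 50 after the start of each gene. Of the 44 genes 35 matched an entry. The cyclic AMP response element TGACGTCA, the site of CREB and ATF proteins, was found on either strand in 5 of the 35 (14.3%), against 2.83% of the 13391 promoters of genes tested and 1.88% of all 27025. The CArG box of serum response factor was in 2 (5.71%) against 1.34% of genes tested, the AP-1 site TGACTCA in 2 (5.71%) against 4.14%, the E-box CACGTG in 6 (17.1%) against 9.30%, the heat shock element GAANNTTC in 2 (5.71%) against 5.91%, and CCAAT in 22 (62.9%) against 37.7%. A CArG box can hold CCAAT, the other motifs do not hold each other, and the shares are descriptions with no test. The promoters of 4 genes are printed to show what the elements look like in genes whose responses are described above, 5′ to 3′ on the strand of the gene, with the cyclic AMP response element (Plk2, Btg2, Dusp8) or the CArG boxes (Dusp5) in capitals.
Plk2, chr13:110394794-110395093, plus strand: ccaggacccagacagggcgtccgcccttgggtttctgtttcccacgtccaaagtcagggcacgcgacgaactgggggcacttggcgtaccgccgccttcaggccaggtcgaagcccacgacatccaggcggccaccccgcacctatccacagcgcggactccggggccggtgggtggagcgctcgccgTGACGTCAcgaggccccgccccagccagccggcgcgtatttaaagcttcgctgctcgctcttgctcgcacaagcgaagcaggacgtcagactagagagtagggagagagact
Btg2, chr1:134079106-134079405, minus strand: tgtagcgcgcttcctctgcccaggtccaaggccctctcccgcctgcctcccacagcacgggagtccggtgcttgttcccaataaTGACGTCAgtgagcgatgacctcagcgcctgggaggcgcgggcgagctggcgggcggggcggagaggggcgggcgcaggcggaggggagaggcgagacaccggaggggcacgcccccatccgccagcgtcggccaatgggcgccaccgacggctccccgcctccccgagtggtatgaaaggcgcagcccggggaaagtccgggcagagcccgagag
Dusp8, chr7:142095235-142095534, minus strand: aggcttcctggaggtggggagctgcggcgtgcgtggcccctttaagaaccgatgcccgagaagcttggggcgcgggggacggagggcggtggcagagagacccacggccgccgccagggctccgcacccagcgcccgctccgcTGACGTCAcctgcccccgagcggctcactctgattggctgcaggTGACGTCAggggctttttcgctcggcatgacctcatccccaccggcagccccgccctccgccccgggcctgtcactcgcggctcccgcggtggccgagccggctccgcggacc
Dusp5, chr19:53528895-53529194, plus strand: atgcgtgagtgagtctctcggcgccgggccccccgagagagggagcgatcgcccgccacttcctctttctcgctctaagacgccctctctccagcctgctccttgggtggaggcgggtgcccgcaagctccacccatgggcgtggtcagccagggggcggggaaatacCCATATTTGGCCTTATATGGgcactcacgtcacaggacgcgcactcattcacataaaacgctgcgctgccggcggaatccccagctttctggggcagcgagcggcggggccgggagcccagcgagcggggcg
The element began at -62 from the start of transcription in Plk2, at -166 in Btg2, and at -107 and -63 in Dusp8, whose window holds a pair of copies. In Dusp5 a pair of adjoining CArG boxes began at -82 and -72. Epha2 and Zbtb21 also held TGACGTCA and Rnd3 a CArG box.

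The other 2 genes went the opposite way, with a kidney change below the lung change. Slc22a23, an orphan member of the organic ion transporter family (chromosome 13, 34179158 to 34345182, minus strand, ENSMUSG00000038267), was at 158 and 149 CPM in kidney control, 23.9 and 19.5 after cisplatin, 70.5 and 73.7 in lung control and 56.8 and 51.0 in lung after cisplatin. Kidney cisplatin was the lowest group by a wide margin, and it did not overlap any other. The kidney level fell to 0.145 of control, the lung ratio of 0.726 was not called, and the interaction was -2.32 ± 0.25 (adjusted p = 0.022, edgeR). Mfsd2a, a transporter of lysophospholipids that carry omega-3 fatty acids (chromosome 4, 122946850 to 122961188, minus strand, ENSMUSG00000028655), fell in kidney from 41.1 and 34.9 to 13.6 and 17.5 CPM and was at 7.30 and 6.95 against 16.0 and 15.6 in lung. Its groups were apart in both organs and the organs ended at near the same level. The lung ratio of 2.20 had an adjusted p of 0.18, and the interaction was -2.37 ± 0.33 with an adjusted p of 0.0495, just inside the threshold. Counting the settings tried, leave-one-out included, Mfsd2a was called in 8 of 18 settings and Slc22a23 in 15 of 18.

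The genes that fell in lung were of another kind. Of the 16 with a called fall in lung, 12 stood in the lung controls at under 1% of their kidney control level, between 0.216% and 0.549%. They included Slc7a9, the light chain of the cystine and basic amino acid transporter of the proximal tubule, Cltrn (collectrin), a partner of amino acid transporters, Calb1 (calbindin), a calcium-binding protein of the distal tubule, and Tfap2b, a transcription factor of the distal nephron. Calb1 was at 774 and 821 CPM in kidney control and 415 and 597 after cisplatin, and in lung at 2.96 and 2.70 against 0.155 and 0.0616. Cltrn was at 5.93 and 5.52 CPM in the lung controls and 0.233 and 0.0986 after cisplatin, with kidney libraries from 1030 to 1747. In both genes the lung groups did not overlap, and every lung value was below 1% of the kidney values.

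Slc7a9 and Tfap2b had 0 reads in both lung cisplatin libraries, against 61 and 28 reads in the lung controls. With a floor of 3 reads over the group they were at least 41.5-fold and at least 19.1-fold lower after cisplatin, and their kidney log2 changes of -0.55 and -0.51 were not called. Cyp2d12, a cytochrome of a large family with similar members, had 1 read after cisplatin against 41, a ratio of 0.0119 with a 95% counting interval of 0.000295 to 0.0703. Rdh16 and Rdh16f2 are similar genes too, and reads may be split between them. Spp2, Akr1c21, ccdc198 and Wfdc15b completed the 12 together with Clrn3, described next. Lung ratios to control were 0.154 for Spp2, 0.0872 for Akr1c21 and 0.0673 for ccdc198.

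Clrn3, a membrane protein of the clarin family (chromosome 7, 135511466 to 135528654, minus strand, ENSMUSG00000050866), was the 1 gene called in opposite directions (0.00549% of genes tested). Its kidney libraries rose from 149 and 131 to 277 and 255 CPM, which is 1.96-fold (adjusted p = 0.039), and its lung libraries stood at 0.362 and 0.416 in control and at 0 in both cisplatin libraries. The 42 reads of the lung controls against 0 made it at least 28.6-fold lower after cisplatin, at a lung control level of 0.287% of kidney control. Without any 1 of the kidney control, kidney cisplatin or lung cisplatin libraries, 0 genes were called in opposite directions. Restricting the test to genes with a lung control level of at least 1% of kidney control, an alternative chosen after seeing the data, left 46 called interactions (45 and 1 by direction), of which 42 were among the 44 genes that rose in kidney, and 0 opposite genes.

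By their medians, tubule transcripts of the kidney were less abundant in the lung cisplatin libraries than in the lung controls. Over 19 proximal tubule genes of a list with at least 10 CPM in kidney control, the median lung level was 0.341% and 0.335% of kidney control in the control libraries and 0.0956% and 0.0477% after cisplatin. Over 14 loop and distal tubule genes it was 0.379% and 0.446% against 0.135% and 0.0311%. The summed CPM of the proximal tubule list did not fall in lung, at 1690 and 1660 in control against 1820 and 1750 after cisplatin. The highest lung level among the 19 genes was 96.5% and 95.2% of kidney control in the controls and 136% in both cisplatin libraries. A member at such a level can carry the sum, and the median lung log2 change of the 20 genes of the list was -2.08. The summed CPM of the loop and distal tubule list was 130 and 128 against 90.1 and 87.6. Lrp2 of the proximal tubule stood at 58.7 and 62.0 CPM in the lung controls and 58.1 and 47.9 after cisplatin. Kap, an abundant androgen-regulated protein of the proximal tubule, was at 39.8 and 40.2 CPM in the lung controls, 2.95 and 0 after cisplatin, and 6620 to 13200 in kidney. Aqp2 of the collecting duct did not follow, at 0.506 and 0.688 CPM against 0.543 and 0.456. The part of kidney RNA in the lung falls was not tested.

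**Figure D4:**
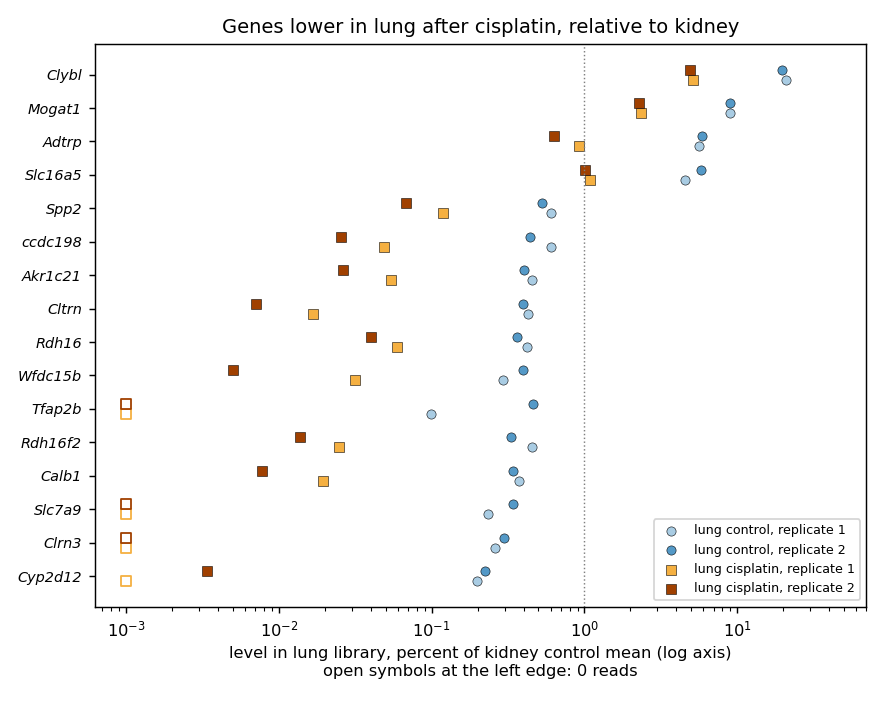
Rows are the 16 genes with a called interaction and a called fall in lung, and the x axis (log scale) gives each lung library as a percent of the mean kidney control level, circles for control and squares for cisplatin. All lung libraries of 12 genes lie left of the dotted line at 1%, and open squares mark libraries with 0 reads.

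The remaining 4 genes of this class stood in the lung controls at 5.43% (Slc16a5) to 20.03% (Clybl) of their kidney control level, still below kidney. Clybl, a mitochondrial enzyme of citramalate breakdown, was at 23.7 and 22.3 CPM in lung control and 5.78 and 5.54 after cisplatin, while its 4 kidney libraries lay between 103 and 114. The lung groups did not overlap, the lung level fell to 0.245 of control, and the interaction was 2.00 ± 0.23 (adjusted p = 0.031). Mogat1, which makes diacylglycerol, fell to 0.253, Slc16a5, a monocarboxylate transporter family member, to 0.188 and Adtrp, a membrane hydrolase, to 0.128 of lung control, and none of the kidney changes of these 4 was called by edgeR. Levels of fat markers differed in the same direction between the lung groups, though neither of the following was called. Adipoq (adiponectin) was at 127 and 129 CPM in the lung controls and 25.7 and 10.0 after cisplatin, and Ucp1, the uncoupling protein of brown fat, at 314 and 302 against 18.6 and 0.542. Of 29 adipocyte genes tested 7 were called down in lung, against 0.797% of all genes tested. The median lung log2 change of the 29 was -3.02. By edgeR 0 had a called interaction, with 14 at an unadjusted p below 0.05 (12.7% of all genes tested) and 8 called by DESeq2. Whether the falls of the 4 genes lie in the lung tissue or in attached fat was not tested.

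Responses that the organs shared were falls of long genes. Both organs were called for 54 genes, of which 50 fell in both and 3 rose in both, besides Clrn3. Of these 53 edgeR called 0 interactions, with 15 at an unadjusted p below 0.05 (12 and 3 by direction, against 12.7% of all genes tested) and 4 called by DESeq2. The median span of the 50 was 340523.5 bp, against 20664.5 bp for all genes tested and 8960.5 bp for the 44 genes called up in kidney and not called in lung. Nckap5, which spans 917180 bp, was at 7.87 and 7.81 CPM in kidney control and 0.640 and 1.16 after cisplatin, and at 88.6 and 90.2 against 13.7 and 17.2 in lung. Kcnh1 (a potassium channel) and Sox6 (an HMG-box factor) fell in kidney by 4.25 and 2.39 and in lung by 3.45 and 2.72 on the log2 scale. Dusp1 and Arl4d were among the 3 that rose in both. Dusp1 went from 26.9 and 24.6 to 126 and 117 CPM in kidney and from 88.8 and 85.6 to 245 and 303 in lung.

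Long protein-coding genes had lower median changes than short ones in both organs. Genes under 10 kb had median log2 changes of 0.24 in kidney and 0.12 in lung, and genes over 200 kb of -0.84 and -0.87. For genes of 100 to 200 kb the medians were -0.66 and -0.46, and 17.1% of the 1343 genes fell in kidney against 1.04% in lung. Over 200 kb, 23.6% and 6.82% of 880 genes were called down. The median interaction stayed between -0.19 and 0.22 in the 6 bins. These medians describe the fits and carry no test.

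**Figure D5:**
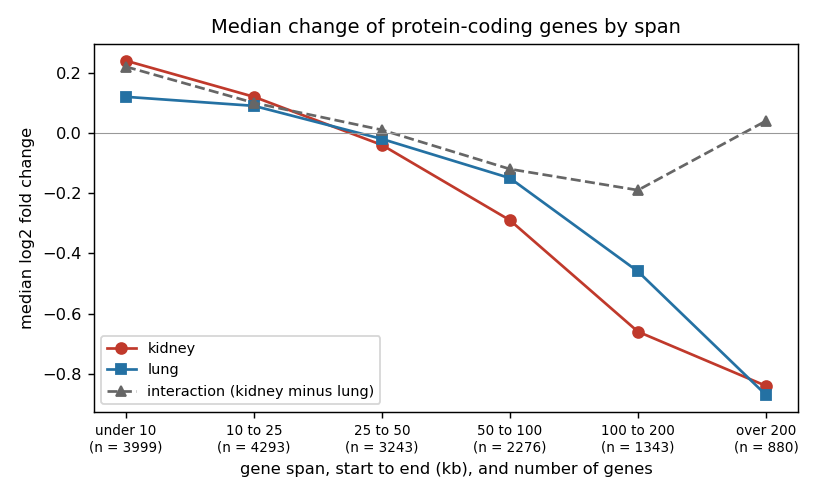
The x axis gives bins of gene span with the number of protein-coding genes in each, and the y axis the median log2 change after cisplatin in kidney (circles) and lung (squares), and the median interaction (triangles). Both organs fall from just above 0 for genes under 10 kb to -0.84 and -0.87 over 200 kb.

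Of the lists described next, edgeR called an interaction in 2, for Plaur among kidney injury markers and Cebpb among glucocorticoid-induced genes, and DESeq2 called more. Over all genes tested, 2.74% rose and 3.29% fell in kidney, 0.0165% rose and 0.797% fell in lung. An unadjusted interaction p below 0.05 was found in 12.7%, and DESeq2 called 702 interactions among the 18204 genes. Among 27 genes of the NRF2 response and metallothioneins 8 rose in kidney and 1 fell in lung, with 0 interactions by edgeR, 10 at an unadjusted p below 0.05 and 4 by DESeq2. Srxn1, which repairs oxidised peroxiredoxins, was at 83.9 and 110 CPM in kidney control, 617 and 524 after cisplatin, 45.5 and 43.4 in lung control and 72.2 and 85.3 after cisplatin, and its interaction of 1.77 had an adjusted p of 0.10. Among 27 NF-kB targets and chemokines 5 rose and 1 fell in kidney, with 0 interactions by edgeR, 11 at an unadjusted p below 0.05 and 4 by DESeq2. Among 20 kidney injury markers 7 rose in kidney. Their interactions at an unadjusted p below 0.05 were 10 with the kidney change above and 1 below, and by DESeq2 7 and 1. Havcr1 (Kim-1), a classic marker of tubular injury, was at 1.09 and 1.91 CPM in kidney control and 5.44 and 5.46 after cisplatin, and its kidney change of 1.85 had an adjusted p of 0.066. Of 16 core clock genes 3 rose in kidney, with 0 interactions by edgeR, 4 at an unadjusted p below 0.05 and 1 by DESeq2. Among 23 glucocorticoid-induced genes 7 were called up and 2 down in kidney, and 1 was called up in lung. In lung 11 of the 23 were up at an unadjusted p below 0.05, against 223 of all 18204 genes tested. DESeq2 called 5 of the 23 up in lung, against 18 of all genes tested. It called 3 interactions in each direction among the 23. Klf15, a glucocorticoid-induced factor, was at 72.2 and 99.4 CPM in kidney control and 27.8 and 22.2 after cisplatin, and at 45.7 and 44.9 against 61.3 and 81.9 in lung, with an interaction of -2.40 (adjusted p = 0.081). The 23 genes of fatty acid oxidation and fasting had 0 interactions by edgeR, 10 at an unadjusted p below 0.05 and 5 by DESeq2, and included 2 falls in lung, Hadhb and Ppara, the latter also called down in kidney. Hadhb, the beta subunit of the mitochondrial trifunctional protein, went from 175 and 175 to 61.1 and 54.7 CPM in lung with all 4 kidney libraries between 152 and 169. Neither the 28 genes of nucleotide excision repair nor the 16 of platinum and copper transport held an edgeR interaction call, with 0 and 5 at an unadjusted p below 0.05 (12.7% of all genes tested) and 0 and 3 called by DESeq2. The smallest interaction p of the transport list were those of Abcc2, Atp7b and Slc22a2. Their interactions were 2.87, -1.64 and 3.69, with edgeR adjusted p of 0.089, 0.147 and 0.154. Slc31a1, the copper transporter Ctr1 that is known to carry cisplatin and was named after its values were seen, stood at 189 to 229 CPM in kidney and 89.5 to 109 in lung, with log2 changes of -0.19 and 0.15.

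XR-seq reads, the oligomers excised around platinum adducts, gave a second readout in cisplatin-treated mice that the call did not use. Reads on the transcribed strand (TS) were compared as CPM with a pseudocount of 1, between 2 kidney and 2 lung libraries, with no control animals. Of the 44 genes that rose in kidney 43 were in these files, all but Plk3, and in 35 of the 43 (81.4%) both kidney libraries were above both lung libraries, as in 36.2% of 18203 genes. Their median kidney minus lung difference was 0.65 on the log2 scale, against 0.05 over all genes. The same order held in 13 of the 15 genes that fell in lung and were not called in kidney (median 3.64). It also held in the 2 genes that fell in kidney (median 2.12), of which Slc22a23 was at 294 and 284 CPM against 159 and 146. A kidney level above lung was thus not particular to the genes that rose in kidney. Fosl1 was at 39.0 and 48.9 CPM in kidney and 3.40 and 5.02 in lung, Myc at 33.1 and 34.8 against 9.68 and 8.69, and Atf3 at 91.8 and 111 against 45.9 and 60.3. Tnfrsf12a overlapped, at 18.4 and 24.4 against 14.5 and 18.8. Clrn3 was at 32.8 and 51.2 CPM in kidney and 1.30 and 0.393 in lung, and Calb1 at 8.68 and 10.8 against 0 and 0.157. With 2 libraries per organ the smallest two-sided p of an exact permutation test is 0.333, so no test was made.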

How the data were processed

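RNA was poly-A selected and sequenced as paired 50-bp reads. The authors aligned reads to mm10 with STAR and counted them per gene with featureCounts, and the deposited values are raw read counts per gene, with no normalization. XR-seq files hold deposited counts per gene on each strand. Of 25059 genes listed, 25041 were found in GENCODE M21 (GRCm38). The 2 lung control libraries were summed, which left 7 samples in 4 groups. The lone lung control was thus assumed to vary like the other groups. edgeR 4.0.16 (R 4.3.3) fitted all 4 groups with TMM factors after filterByExpr. The interaction was tested by the quasi-likelihood test against 0 and each organ by glmTreat against a log2 change of 0.4, with Benjamini-Hochberg adjusted p below 0.05 as the call. Alternatives were DESeq2 1.42.0, other scalings, no filter, 8 separate libraries, a replicate block and leaving out each library. The study describes its replicates as biological, while the labels tie no library to an animal. Named genes were those with the largest interaction among called genes (logCPM of at least 2, groups not overlapping), the largest shared changes, and up to 4 members with the smallest interaction p in each list. Other genes, Fos, Egr1, Hspa1a, Ppara and tissue markers among them, were added after their values were seen. Members and lists were chosen with earlier results of these data known. Statistics were tested on simulated data. Intervals and floors cover counting error only. Some genes that the rule names are not reported here.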

Additional observations from a re-analysis of the deposited data

Results flagged for a closer look

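The organs differed by a test of the difference itself for 63 genes, and 1 of these was called in opposite directions. Clrn3 had the largest fitted interaction, 8.66 on the log2 scale, followed by Slc7a9 at 7.68 and Tfap2b at 6.61. All of these have 0 reads in the lung cisplatin libraries, so that the fitted values depend on the prior count and are no bound. The interaction was 6.21 for Fosl1, 5.84 for Plk3, 5.71 for Cyp2d12, 5.51 for Cltrn and 5.08 for Atf3. It was below 0 for Mfsd2a at -2.37 and Slc22a23 at -2.32. The largest values of Clrn3, Slc7a9, Tfap2b, Cyp2d12 and Cltrn rest on lung levels under 1% of kidney control, and the part of kidney RNA in them was not tested.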

How the results depend on the processing

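Without the sum of the lung controls, with 8 libraries as replicates, 796 interactions, 1874 kidney, 824 lung and 6 opposite genes were called. DESeq2 called 702 interactions and 326 lung genes, and no filter on low counts gave 413, 537 and 3 opposite. All 63 genes were called in each of these fits. Testing the organs against 0 gave 2272 kidney, 275 lung and 2 opposite genes. With only genes whose lung control was at least 1% of kidney control, chosen after seeing the data, opposite genes were 0, and DESeq2 then called 635 interactions, 255 lung and 0 opposite genes. RLE scaling called 52 interactions and TMM within each organ 59, all among the 63. Testing the interaction against 0.4, the size used for each organ, called 42 (41 and 1 by direction), 27 of the 44 genes called up in kidney and 14 of the 16 that fell in lung among them.

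Leaving out 1 library gave 1 to 147 interactions, 103 to 1190 kidney, 0 to 346 lung and 0 to 1 opposite genes. Lung calls were 0 by edgeR without kidney cisplatin replicate 1, kidney cisplatin replicate 2 or lung cisplatin replicate 2, with 1669, 1686 and 1130 genes at an unadjusted p below 0.05. Kidney calls were 103 and 121 without kidney cisplatin replicate 1 and 2.

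The labels do not say what a shared replicate number means, and the main fit did not take it as a pairing. The replicate differences of control and cisplatin libraries correlated at 0.602 in kidney and at 0.0851 in lung. In kidney, libraries of the same number thus deviated alike, and the main fit did not use this. With the replicate block on 8 libraries 2549 interactions, 2881 kidney, 1594 lung and 15 opposite genes were called. Of 3333 refitted values of single genes 2751 kept their direction and side of the threshold, 268 lost the call, 314 gained one and 0 reversed.

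In simulated counts the edgeR interaction test called 14 of 17703 unchanged genes. It called 61 of 100 genes given a 4-fold interaction and 6 of 100 given a 2-fold one. Unchanged genes were thus a larger part of the calls than an adjusted p below 0.05 allows. Depth limits lung values of kidney genes to a handful of reads in several cases, and 2 libraries per group limit every test.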
